A study of Ictalurus furcatus with 16 samples.

Results

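The genes acta1a, acta1b and actn3b, named for parts of the muscle sarcomere, were followed through every testis library of a study of male blue catfish (Ictalurus furcatus), a freshwater fish of North America. They were taken by symbol, 3 of the 26356 genes in the deposited tables. The 3 were selected on the counts of these same libraries, with earlier results known. Which of those values decided the choice is not recorded, so the calls against age 2 given here describe the 3 genes and are no independent support. The study asks how the testis transcriptome differs between ages, with 16 libraries made from total RNA and 4 fish at each of ages 2, 4, 7 and 9. The labels state no unit of age and no treatment, strain or genotype, and they describe the replicates of each age as biological. The series names age 2 as the control. All libraries are of bulk tissue, in which fewer cells of a type and less RNA per cell cannot be told apart.

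Skeletal muscle alpha-actin is the protein of the thin filament, along which myosin heads pull when a striated muscle contracts. Alpha-actinins tie the ends of thin filaments together at the Z-disc, the border between neighbouring sarcomeres, and titin spans from there towards the thick filament. The testis holds no striated muscle of its own. Its contractile cells are the peritubular myoid cells and the smooth muscle of vessels and ducts, which use the smooth muscle actin encoded by acta2. In fish, acta1a and acta1b encode skeletal muscle alpha-actins, whereas actn3b encodes an alpha-actinin of fast muscle and is not an actin. The 3 genes are therefore called by their symbols here.

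The libraries held between 5136717 and 8081160 assigned fragments. Levels are given in CPM, the count scaled to a fixed library total, after TMM scaling, which evens out differences in library composition. The level of sperm production was read from a sperm flagellum score, the mean log2 CPM of 73 genes of the sperm tail axoneme and its assembly. The score was 5.20 in age 2 replicate 1, 2.55 in replicate 2, 2.48 in replicate 3 and 1.86 in replicate 4. It lay between 4.11 and 5.92 in the 12 libraries of ages 4, 7 and 9. Levels of gsdf, which encodes a Sertoli cell growth factor of fish gonads, were 101.5 CPM for age 2 replicate 1, 1934 to 6708 CPM for replicates 2 to 4 of age 2, and 95.9 to 510.6 CPM for the older libraries. Age 2 replicate 1 thus went against its age on both measures. Fold changes of the 3 genes against age 2 and counts of the gene lists are given with and without it. Fold changes of other single genes against age 2 are given with all 16 libraries only, and may change without it.

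Each of the 3 genes has 1 transcript in the tables, each passed the filter on low counts, and a reference annotation places no other gene over them. The actins acta1a, acta1b, acta2 and actc1a encode closely similar proteins. Reads that fall in any stretches of sequence shared by these genes may have been split between them or set aside. Their counts are uncertain to that degree, and how much sequence they share was not examined. No gene lengths were used, so a difference in CPM between genes is not read as a difference in the number of transcripts.

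The skeletal muscle alpha-actin gene acta1a was high in every testis except 3 of the 4 at age 2. At age 2 it had 404 CPM in replicate 1, 39.9 CPM in replicate 2, 34.4 CPM in replicate 3 and 28.4 CPM in replicate 4. The highest of the 4 was 14.2 times the lowest, with replicate 1 apart from the other 3. At age 4 it had 481, 331, 644 and 624 CPM in replicates 1 to 4. At age 7 it had 770.1, 627, 631 and 837 CPM. At age 9 it had 409, 718, 473 and 404 CPM. The 12 older libraries all lay above age 2 replicates 2 to 4, and age 2 replicate 1 fell inside their range. These levels rest on 2392 to 4847 counts per library at the older ages and on 170 to 2521 counts at age 2.

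Mean acta1a was 520.1 ± 145.6 CPM at age 4 (SD, n = 4), against 126.7 ± 185 CPM at age 2 (SD, n = 4). The log2 fold change was 2.04 ± 0.66 (SE; edgeR quasi-likelihood test, Benjamini-Hochberg adjusted p = 0.044), and the 2 ages overlapped. At that threshold, an adjusted p of 0.05, 18.6% of the 15979 genes tested passed at age 4 against age 2, 6.66% with a higher and 12% with a lower level at age 4. At age 7 the mean was 716.3 ± 104.5 CPM and the log2 fold change against age 2 was 2.499 ± 0.68 (edgeR adjusted p = 0.016). There the ages did not overlap, as was the case for 15.1% of the genes tested, and 27.3% of the genes passed the test, 11.5% higher and 15.9% lower at age 7. At age 9 the mean was 500.9 ± 147.9 CPM and the log2 fold change against age 2 was 1.98 ± 0.66 (edgeR adjusted p = 0.0483), with overlap, and 18.4% of the genes passed, 6.82% higher and 11.5% lower at age 9.

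The fold changes of acta1a depended on age 2 replicate 1. Without it the other 3 age 2 libraries averaged 34.2 ± 5.74 CPM (SD, n = 3), and the log2 fold changes at ages 4, 7 and 9 were 3.97 ± 0.29, 4.45 ± 0.30 and 3.90 ± 0.29. The edgeR adjusted p-values were then 8.2e-07, 3.8e-07 and 1.35e-06, with 45.9%, 48.1% and 42.2% of the genes passing at the 3 ages. With all 16 libraries in place the calls were close to the threshold. The call at age 4 was lost in 14 of the 16 fits that left out 1 library, and was kept without age 2 replicate 1 and without age 9 replicate 2. The call at age 9 was lost in 15 of the 16 and kept without age 2 replicate 1. The call at age 7 was lost without age 2 replicate 2 (edgeR adjusted p = 0.0502).

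**Figure D1:**
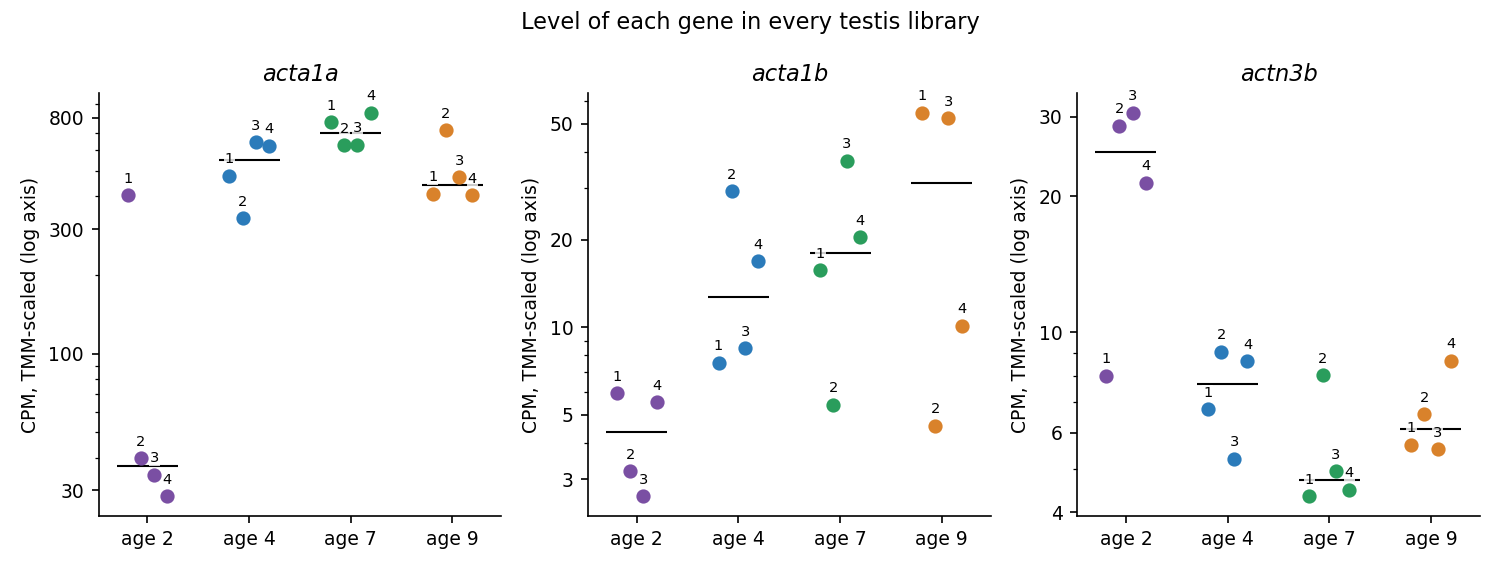
Level of acta1a, acta1b and actn3b in each testis library, in TMM-scaled CPM on a log axis, by age; each point is 1 library with its replicate number and each line is the median of 4 libraries. At age 2, replicate 1 stands at 404 CPM for acta1a and 8.01 CPM for actn3b, apart from replicates 2 to 4 (28.4 to 39.9 CPM and 21.4 to 30.6 CPM).

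The second skeletal muscle alpha-actin gene, acta1b, was low in all 4 testes of age 2 and varied widely among those of the older ages. At age 2 it had 5.93, 3.20, 2.62 and 5.52 CPM in replicates 1 to 4, from 18 to 37 counts. Age 2 replicate 1 lay beside replicate 4 here, and the 4 libraries did not split as they did for acta1a. At age 4 it had 7.55, 29.3, 8.47 and 16.9 CPM. At age 7 it had 15.7, 5.42, 37.3 and 20.4 CPM. At age 9 it had 54.5, 4.58, 52.3 and 10.1 CPM. Age 7 replicate 2 and age 9 replicate 2 stayed within the range of age 2, while age 9 replicates 1 and 3 were the highest of all 16 libraries. Over the 12 older libraries the highest level was 11.9 times the lowest, against 2.53 times for acta1a and 2.09 times for actn3b.

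Mean acta1b was 15.6 ± 10.1 CPM at age 4, 19.7 ± 13.3 CPM at age 7 and 30.4 ± 26.7 CPM at age 9, against 4.32 ± 1.65 CPM at age 2 (SD, n = 4 each). At age 4 the log2 fold change was 1.85 ± 0.73 and missed the threshold (edgeR adjusted p = 0.0795), although the 2 ages did not overlap, which held for 9.41% of the genes tested. At age 7 it was 2.19 ± 0.74 (edgeR adjusted p = 0.0376) and at age 9 it was 2.82 ± 0.75 (edgeR adjusted p = 0.0196), both with overlap. Without age 2 replicate 1 the 3 values were 2.09, 2.43 and 3.03 (edgeR adjusted p = 0.0507, 0.0262 and 0.0103 in order of age). The call at age 7 was lost without any one of age 2 replicates 2, 3 and 4 or of age 7 replicates 1, 3 and 4, where the log2 fold change went no lower than 1.70 and the adjusted p no higher than 0.105. The call at age 9 was lost without any one of age 2 replicates 2 and 3 or of age 9 replicates 1 and 3, where the values were at least 2.37 and at most 0.0643.

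The alpha-actinin gene actn3b ran the other way, and its high libraries were the 3 in which acta1a was low. At age 2 it had 8.01 CPM in replicate 1, against 28.6, 30.6 and 21.4 CPM in replicates 2, 3 and 4. Replicate 1 again lay apart from the others of its age. At age 4 it had 6.76, 9.06, 5.25 and 8.64 CPM. At age 7 it had 4.34, 8.04, 4.93 and 4.49 CPM. At age 9 it had 5.64, 6.60, 5.52 and 8.65 CPM. The older libraries lay within a narrow range, and replicate 1 of age 2 fell inside it. The levels rest on 50 to 210 counts at age 2 and on 26 to 71 counts in the older libraries.

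Mean actn3b fell to 7.43 ± 1.76 CPM at age 4, 5.45 ± 1.74 CPM at age 7 and 6.60 ± 1.45 CPM at age 9, against 22.2 ± 10.2 CPM at age 2 (SD, n = 4 each). The log2 fold changes were -1.57 ± 0.37 (edgeR adjusted p = 0.0171), -2.02 ± 0.38 (adjusted p = 0.00541) and -1.75 ± 0.37 (adjusted p = 0.00815). All 3 older ages overlapped with age 2, through age 2 replicate 1. Without that library the log2 fold changes were -1.80, -2.23 and -1.99 (edgeR adjusted p = 0.000163, 2.82e-05 and 0.000105). The call at age 4 was lost without any one of age 2 replicates 2 and 3 and age 4 replicate 3 (adjusted p up to 0.0631), while those at ages 7 and 9 held in every fit that left out 1 library.

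**Figure D2:**
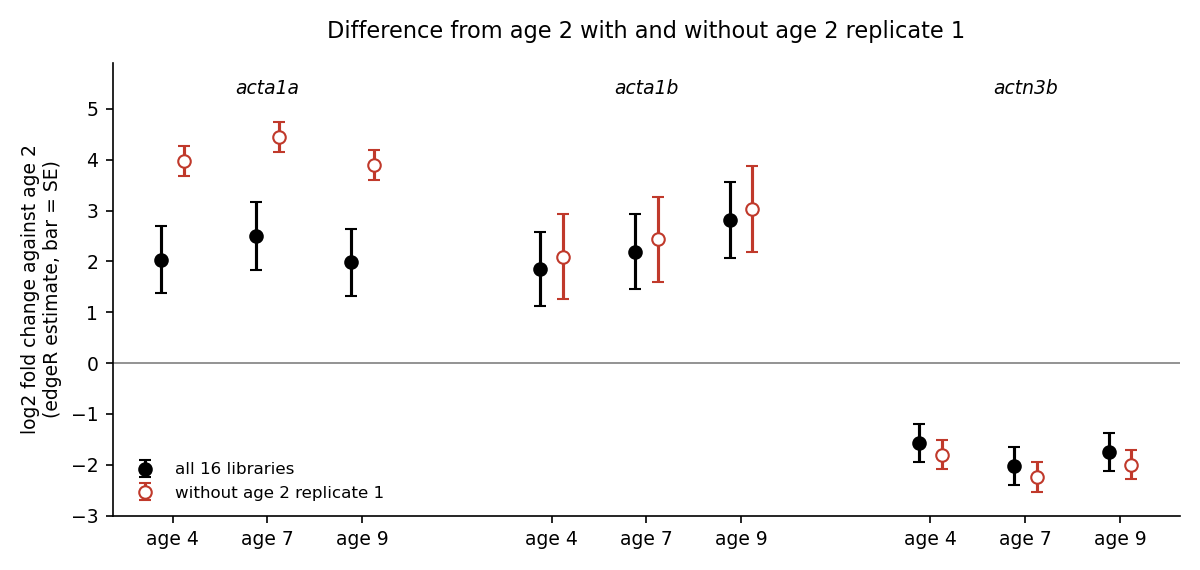
Log2 fold change of each gene at ages 4, 7 and 9 against age 2, as estimated by edgeR with a standard error derived from its F statistic, with all 16 libraries (filled) and without age 2 replicate 1 (open). For acta1a the estimates move to 3.97, 4.45 and 3.90 without that library, while those of acta1b and actn3b move by less than 0.25.

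Among the older ages no comparison of the 3 genes passed. For acta1a the log2 fold change was 0.46 ± 0.64 at age 7 against age 4, -0.05 ± 0.64 at age 9 against age 4 and -0.52 ± 0.64 at age 9 against age 7 (edgeR adjusted p = 0.994, 0.990 and 0.851). For acta1b the same 3 values were 0.34 ± 0.69, 0.96 ± 0.69 and 0.62 ± 0.69 (adjusted p = 0.994, 0.702 and 0.836). For actn3b they were -0.45 ± 0.37, -0.17 ± 0.37 and 0.28 ± 0.37 (adjusted p = 0.994, 0.928 and 0.864). The fit shares its spread over all ages, so age 2 replicate 1 also entered these standard errors. Without that library the acta1a values were 0.48 ± 0.23, -0.08 ± 0.23 and -0.55 ± 0.23 (edgeR adjusted p = 0.763, 0.909 and 0.362). The standard errors were then 0.69 for acta1b and 0.28 for actn3b, and no comparison of the 3 genes passed. With all 16 libraries 0.0125% of the genes tested passed at age 7 against age 4. In that fit edgeR called 0 genes at age 9 against age 4 and 0 at age 9 against age 7. At an unadjusted p of 0.05 the last 2 comparisons had 1505 and 1131 genes, DESeq2 called 111 and 75, and limma voom called 63 and 242. In order of mean level, acta1a ran from age 2 through ages 9 and 4 to age 7, and the means of ages 9 and 4 differed by less than their spread. For acta1b the means ran in the order of age, and the spread at each older age was larger than its distance to the next. For actn3b age 2 was the highest, followed by ages 4, 9 and 7, and neighbours among those 3 differed by less than their spread.

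The 3 genes did not share 1 pattern over the libraries. The ratio of acta1a counts to actn3b counts was 50.4 in age 2 replicate 1, 1.12 to 1.39 in age 2 replicates 2 to 4, and 36.5 to 186.4 at the older ages. The ratio of acta1a counts to acta1b counts was 68.1 in age 2 replicate 1 and 5.15 to 13.1 in age 2 replicates 2 to 4, but it ran from 7.50 to 156.6 in the older ones, so that ratio did not separate the libraries. After each gene's mean was subtracted, the root mean square difference in log2 CPM over the 16 libraries was 1.45 between acta1a and acta1b, 2.42 between acta1a and actn3b and 1.97 between acta1b and actn3b. By that measure acta1b ranked 4238 among the genes tested in likeness to acta1a.

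The sperm flagellum score was set beside each gene to relate it to sperm production. In the 3 age 2 libraries with a score of at most 2.55, acta1a lay between 28.4 and 39.9 CPM and actn3b between 21.4 and 30.6 CPM. In the 13 libraries with a score of at least 4.11, age 2 replicate 1 among them, acta1a lay between 331 and 837 CPM and actn3b between 4.34 and 9.06 CPM. These 2 clusters of libraries did not overlap in either gene. For acta1b they did: the 3 low-score libraries had 2.62 to 5.52 CPM and the other 13 had 4.58 to 54.5 CPM. The share of all genes tested that separate the clusters in this way was not computed, so the separation only describes these genes. The tests by age are another measure and another grouping. Without age 2 replicate 1, 45.9%, 48.1% and 42.2% of all genes passed them at ages 4, 7 and 9 against age 2. Because the libraries fall into 2 clusters, and the one with low scores holds 3 libraries of 1 age, no correlation over all 16 was computed.

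Within the 12 libraries of ages 4, 7 and 9, none of the 3 genes passed the test of a slope on the score. With age as a term in the fit, the slope was 0.17 ± 0.16 log2 units per unit of score for acta1a (edgeR adjusted p = 0.529), -0.89 ± 0.68 for acta1b (adjusted p = 0.445) and -0.22 ± 0.23 for actn3b (adjusted p = 0.583). Of all genes tested 14.5% passed in that fit. When each of the 12 libraries was left out in turn, the slope ran from 0.0512 (without age 9 replicate 2) to 0.501 (without age 4 replicate 4, edgeR adjusted p = 0.0603) for acta1a, from -1.33 to -0.586 for acta1b and from -0.36 to -0.0951 for actn3b, and it passed in none of those fits. Pearson's r with the score was 0.433 for acta1a (permutation p = 0.158, adjusted over the 3 genes 0.176), -0.417 for acta1b (p = 0.176, adjusted 0.176) and -0.439 for actn3b (p = 0.153, adjusted 0.176; permutation, n = 12). Spearman's rho was 0.594 for acta1a (permutation p = 0.0441, adjusted 0.132), -0.455 for acta1b (p = 0.139, adjusted 0.209) and -0.357 for actn3b (p = 0.256, adjusted 0.256). With 1 library left out, Pearson's r ran from 0.31 to 0.597, -0.539 to -0.353 and -0.574 to -0.315 for acta1a, acta1b and actn3b.

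When the libraries with scores farthest from the median were left out, replicate 4 of age 9 and replicate 4 of age 4, r was 0.515 for acta1a, -0.728 for acta1b (permutation p = 0.0189, adjusted 0.0568) and -0.0897 for actn3b. The value of actn3b therefore rested on those libraries. With levels and score centred on the mean of each age, r was 0.308, -0.426 and -0.373 for acta1a, acta1b and actn3b. With a meiosis score of 14 genes in place of the flagellum score, the signs turned, and r was -0.14, 0.24 and 0.05 in the same order. When all 16 libraries entered the slope fit, acta1a rose with the score by 0.87 ± 0.15 log2 units per unit (edgeR adjusted p = 0.000444) and actn3b had a slope of -0.44 ± 0.15 (adjusted p = 0.0275). The slope of acta1b was -0.16 ± 0.33 (edgeR adjusted p = 0.739). That fit draws on the difference between replicate 1 and the other libraries of age 2, and 5397 of the 15979 genes tested passed in it.

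**Figure D3:**
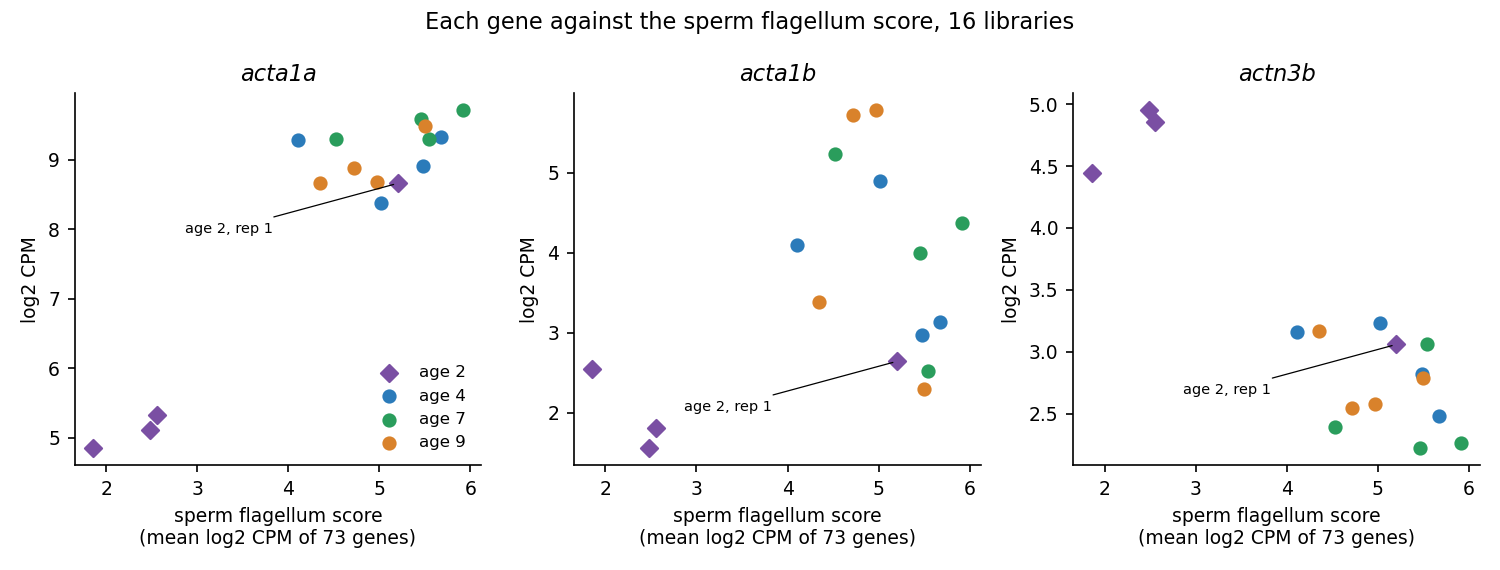
Log2 CPM of each gene against the sperm flagellum score (mean log2 CPM of 73 genes) in 16 libraries; diamonds are age 2 and circles ages 4, 7 and 9. Age 2 replicate 1, with a score of 5.20, lies among the older libraries, and the other 3 age 2 libraries lie at scores of 1.86 to 2.55.

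To show which genes shared each pattern, the 5 genes with the smallest root mean square difference were taken for each of the 3. Those nearest to acta1a differed from it by 0.22 to 0.27 log2 units, against a median of 1.71 over all genes tested. Of the 5, 4 carry no gene name in the tables, and the other was hk2, which encodes hexokinase 2, the enzyme that phosphorylates glucose at the start of glycolysis. The level of hk2 was 183 CPM in age 2 replicate 1, 10.9 to 15.7 CPM in age 2 replicates 2 to 4, and 124 to 409 CPM at the older ages. That is the division of libraries seen for acta1a.

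The genes nearest to acta1b were less close to it, at 0.56 to 0.73 log2 units against a median of 1.42. They were pgr, the nuclear progesterone receptor; atp2a2a, a calcium pump of the sarcoplasmic reticulum; tmem30c; gfra1b, a receptor of the GDNF family; and cnn1b, a calponin of smooth muscle. The level of pgr was 12.3 CPM in age 2 replicate 1, 8.74 to 19.9 CPM in the other age 2 libraries and 12.2 to 121.4 CPM in the older ones. For cnn1b the same levels were 255, 156.9 to 431.9 and 332.1 to 1384 CPM. As with acta1b, the older libraries spread widely and overlapped with age 2.

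The genes nearest to actn3b lay at 0.24 to 0.27 log2 units against a median of 0.97, and were mtus2b, prdm2a, ttbk2a and ccr9b with 1 gene that has no name in the tables. Of these, ttbk2a encodes a tau tubulin kinase, ccr9b a chemokine receptor and prdm2a a zinc finger protein with a PR domain. For mtus2b the level was 38.9 CPM in age 2 replicate 1, 93.8 to 167.4 CPM in the other age 2 libraries and 20.7 to 43.9 CPM in the older ones. None of these 4 is in the sarcomere lists used here.

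**Figure D4:**
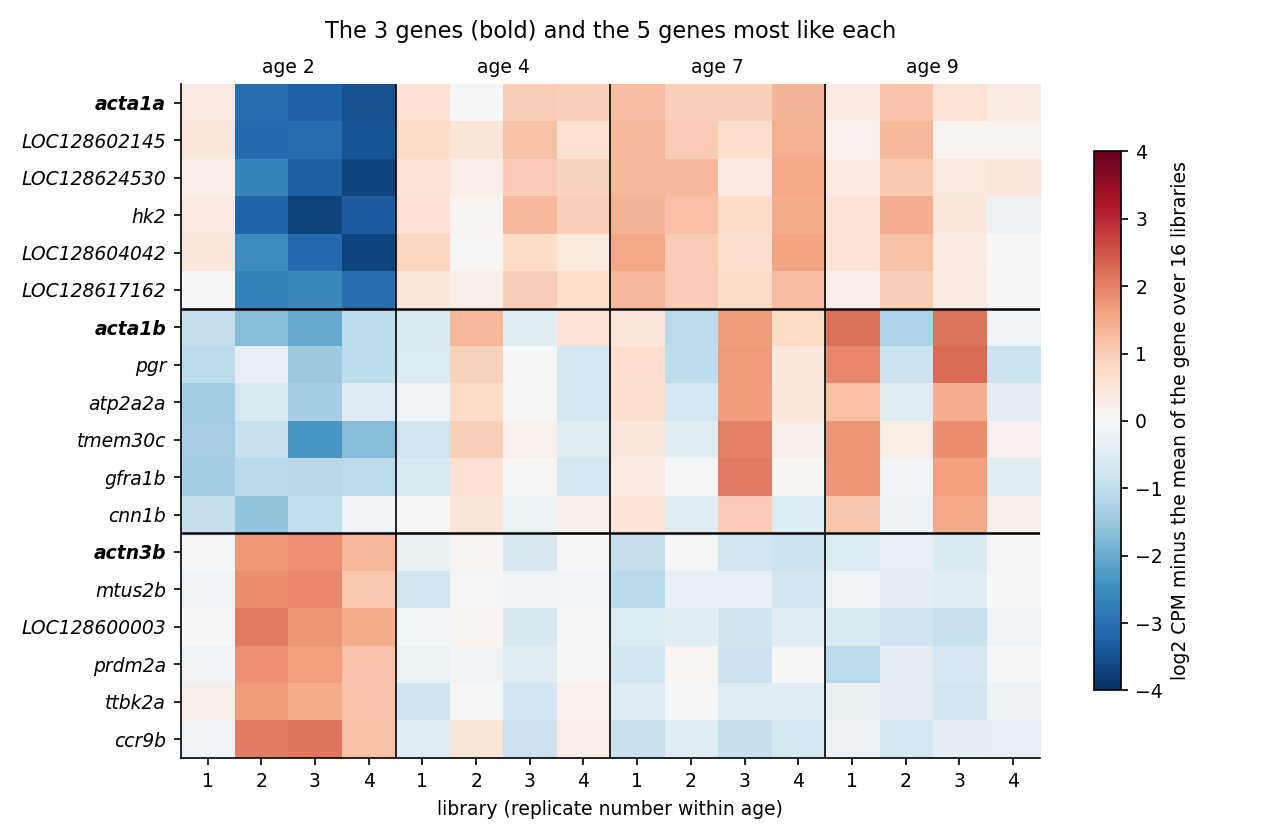
Log2 CPM of each of the 3 genes (bold) and of the 5 genes most like it, minus the mean of the gene over the 16 libraries, with libraries in columns by age and replicate. The block of acta1a is low in age 2 replicates 2 to 4, that of actn3b is high in the same libraries, and that of acta1b is high in age 9 replicates 1 and 3 and age 7 replicate 3.

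Genes of the striated muscle sarcomere spanned a wide range of levels in these testes. Of 84 thin filament, thick filament and Z-disc genes in the tables other than the 3, 41 averaged under 1 CPM, 9 had no count in any library, and 42 passed the filter. Among the highest in CPM were the titin gene ttn.2, at a mean of 948 CPM over the 16 libraries, and synpo2b, at 417 CPM. CPM here takes no account of gene length, so this order is of fragments and does not rank the transcripts. Several markers of striated muscle, picked after their values were seen, were low. Others of the same lists were higher, such as tnnc2.2, tpm1 and tnni1b, at up to 164.6, 36.8 and 21.4 CPM. Fast troponin T (tnnt3a and tnnt3b) reached at most 0.50 and 1.39 CPM in any library. The thin filament ruler nebulin (neb) reached at most 0.73 CPM, the titin cap tcap 1.17 CPM, the light chain myl1 0.42 CPM and the muscle regulator myod1 1.003 CPM. The sarcoplasmic calcium pump atp2a1, calsequestrin casq2 and triadin trdn had no count in any library, and 3 counts in the smallest library would be 0.584 CPM. The deposited counts are per transcript, and how reads shared by several transcripts of a gene were counted was not stated. A low or absent count is therefore not read as absence of the transcript. The muscle creatine kinase ckma lay between 1.65 and 10.6 CPM.

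Over the 42 tested sarcomere genes, 4 rose and 3 fell at age 4 against age 2, 9 rose and 6 fell at age 7, and 6 rose and 4 fell at age 9. Those are 16.7%, 35.7% and 23.8% of the 42, beside 18.6%, 27.3% and 18.4% of all genes. Their median log2 fold changes were -0.34, -0.13 and -0.08, beside -0.05, -0.08 and -0.03 over all genes. In the fit that left out age 2 replicate 1, 9 rose and 7 fell at age 4, 12 and 9 at age 7, and 12 and 7 at age 9. Those are 38.1%, 50% and 45.2% of the 42, beside 45.9%, 48.1% and 42.2% of all genes. The sarcomere genes thus moved in both directions. In both fits their share of calls lay below that of all genes at age 4 and above it at ages 7 and 9. Without age 2 replicate 1 the shares at ages 7 and 9 lay closer to those of all genes, and the share at age 4 lay farther. Whether the shares differ from those of all genes was not tested.

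Of the 12 other thin filament genes tested, 2 rose at age 4, 2 rose and 1 fell at age 7, and 1 rose and 1 fell at age 9. The fast troponin C gene tnnc2.2, whose protein binds calcium on the thin filament, divided the libraries as acta1a did. It had 53.2 CPM in age 2 replicate 1, 3.51 to 5.004 CPM in age 2 replicates 2 to 4, and 41.1 to 164.6 CPM at the older ages. Its log2 fold change against age 2 was 2.24 ± 0.71 at age 4 and 2.89 ± 0.72 at age 7 (edgeR adjusted p = 0.0394 and 0.0122), and 1.90 ± 0.70 at age 9 (adjusted p = 0.0671). Within the older ages it rose with the flagellum score by 0.83 ± 0.14 log2 units per unit (edgeR adjusted p = 0.00136). It was the only 1 of the 12 to pass that test of a slope, which 14.5% of all genes passed. Of the 11 thick filament genes tested 0 passed it, and of the 19 Z-disc and titin genes 1 did. Without age 2 replicate 1 the list had 3 genes higher and 1 lower at age 4, 2 and 3 at age 7, and 3 and 1 at age 9. With all libraries 16.7%, 25% and 16.7% of the 12 passed, beside 18.6%, 27.3% and 18.4% of all genes. Without that library it was 33.3%, 41.7% and 33.3%, beside 45.9%, 48.1% and 42.2%. The slow troponin I gene tnni1b rose at all 3 ages, by 2.08, 2.32 and 2.65, but was low in all of age 2, at 1.44 CPM in replicate 1 and 1.17 to 4.08 CPM in the others. The troponin I gene tnni1d fell at age 7 (-3.47 ± 0.86), and nebl, for the nebulin-like protein nebulette, fell at age 9 (-2.10). The change of tnni1d rests on few counts, 96 over all 16 libraries. Its mean was 2.04 CPM at age 2 and 0.164 CPM at age 7, the latter below the 0.584 CPM of 3 counts in the smallest library.

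Of the 11 thick filament genes tested, 1 rose and 2 fell at age 4, 1 rose and 4 fell at age 7, and 2 rose and 2 fell at age 9. Their M-band genes went both ways. Myomesin myom1b rose by 2.08, 2.43 and 2.14 at ages 4, 7 and 9 (edgeR adjusted p = 0.0292, 0.0112 and 0.0231), while myom3 fell, with values of -1.91, -1.71 and -1.77 (adjusted p = 0.0179, 0.0153 and 0.0178). The level of myom3 was 4.81 CPM in age 2 replicate 1, 22.8 to 41.2 CPM in the other age 2 libraries and 4.18 to 9.69 CPM in the older ones, as for actn3b. The regulatory light chain mylpfa rose at age 9 (1.49, edgeR adjusted p = 0.0104). Without age 2 replicate 1 the list had 2 genes higher and 4 lower at age 4, and 3 and 4 at ages 7 and 9. With all libraries 27.3%, 45.5% and 36.4% of the 11 passed, beside 18.6%, 27.3% and 18.4% of all genes. Without that library it was 54.5%, 63.6% and 63.6%, beside 45.9%, 48.1% and 42.2%.

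Of the 19 Z-disc and titin genes tested other than actn3b, 1 rose and 1 fell at age 4, 6 rose and 1 fell at age 7, and 3 rose and 1 fell at age 9. The other alpha-actinin gene among them that passed, actn2b, fell at all 3 ages, with log2 fold changes of -2.18 ± 0.49, -2.13 ± 0.49 and -1.72 ± 0.48 (edgeR adjusted p = 0.0163, 0.00891 and 0.0235). It had 2.56 CPM in age 2 replicate 1, 14.0 to 18.9 CPM in the other age 2 libraries and 1.73 to 5.22 CPM in the older ones. The titin gene ttn.2 had 971 CPM in age 2 replicate 1, 166 to 236.4 CPM in the other age 2 libraries and 588 to 1826 CPM in the older ones, and rose at age 7 (1.86 ± 0.49, adjusted p = 0.0143). The gene synpo2b, for a synaptopodin that binds actin in smooth muscle as well as at the Z-disc, rose by 1.43 ± 0.40, 1.92 ± 0.41 and 2.63 ± 0.42. Its level in age 2 replicate 1 was 117 CPM, within the 65.7 to 156.7 CPM of the other age 2 libraries. Without that library the list had 4 genes higher and 2 lower at age 4, 7 and 2 at age 7, and 6 and 2 at age 9. With all libraries 10.5%, 36.8% and 21.1% of the 19 passed, beside 18.6%, 27.3% and 18.4% of all genes. Without age 2 replicate 1 it was 31.6%, 47.4% and 42.1%, beside 45.9%, 48.1% and 42.2%.

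**Figure D5:**
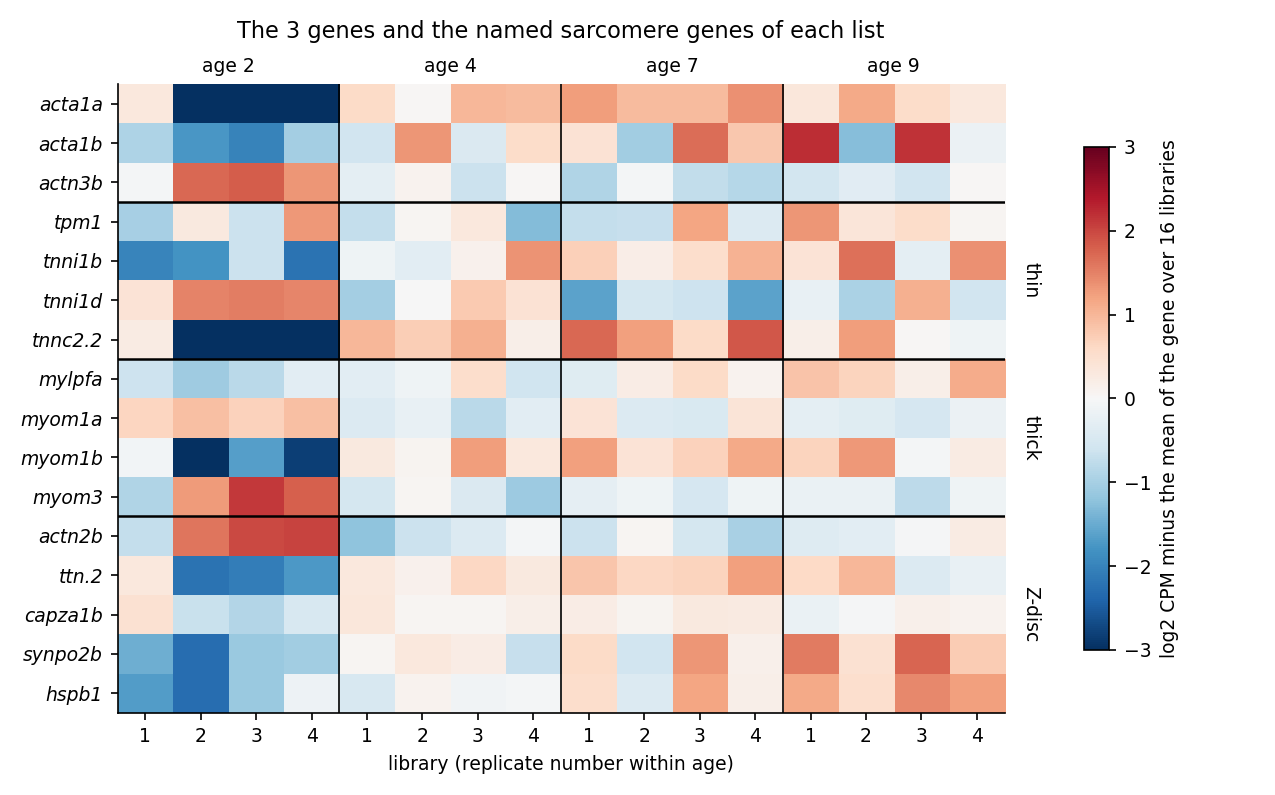
Log2 CPM of the 3 genes and of the named thin filament, thick filament and Z-disc genes, minus the mean of the gene over the 16 libraries, by age and replicate; colours end at 3 log2 units either way. Low levels in age 2 replicates 2 to 4 are shared by acta1a, tnnc2.2, myom1b and ttn.2, and high levels there by actn3b, actn2b and myom3.

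Beyond the sarcomere, genes of muscle membranes and calcium handling also moved in both directions. Of 16 tested, 5 fell at age 4, and 3 rose and 4 fell at each of ages 7 and 9. Without age 2 replicate 1, 2 rose and 6 fell at age 4, 3 and 7 at age 7, and 3 and 5 at age 9. With all libraries 31.25%, 43.75% and 43.75% passed, and without that library 50%, 62.5% and 50%. The shares over all genes were 18.6%, 27.3% and 18.4%, and 45.9%, 48.1% and 42.2% without that library. Dystrophin dmd fell at all 3 ages (-2.19, -1.96 and -1.49), and so did the muscle acetylcholine receptor subunit chrna1 (-2.23, -1.78 and -2.11). The calcium release channel ryr1a rose at age 7 (1.19) and age 9 (1.22), as did the calcium pump atp2a2a (1.67 and 1.62). Of 16 muscle enzyme genes, 1 fell at age 4, 2 rose and 4 fell at age 7, and 1 rose and 2 fell at age 9. Without age 2 replicate 1, 4 rose and 5 fell at ages 4 and 9, and 4 rose and 4 fell at age 7. With all libraries 6.25%, 37.5% and 18.75% of the enzyme genes passed, and without that library 56.25%, 50% and 56.25%. The muscle glycogen phosphorylase gene pygma fell at all 3 ages (-2.54, -3.32 and -3.15). Of 6 myogenic regulators tested, mymk, a membrane protein of myoblast fusion, rose at all 3 ages (1.42, 1.61 and 2.34). Without age 2 replicate 1 that list had 1 gene higher at each age and 1 lower at age 7. With all libraries 16.7% of the 6 passed at each age, and without that library 16.7%, 33.3% and 16.7%. Of 11 genes of the serum response factor pathway, which drives muscle actin genes, 2 fell at age 4 and 1 at age 7, and edgeR called 0 at age 9, where 3 were lower at an unadjusted p of 0.05. With replicate 1 of age 2 left out, 3 of them fell at age 4, 2 at age 7 and 5 at age 9. Those are 27.3%, 18.2% and 45.5% of the 11, against 18.2%, 9.09% and 0% with all libraries.

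On a list of other actins, actin-related proteins and alpha-actinins, more genes rose than fell at ages 4 and 7. Of 12 genes of this list tested, 3 rose and 1 fell at each of ages 4 and 7, which is 33.3% of them beside 18.6% and 27.3% of all genes. The gene acta2 is on this list and on the smooth muscle list. At age 9 edgeR called 0, and 3 were higher at an unadjusted p of 0.05. Without age 2 replicate 1, 6 rose and 1 fell at age 4, 7 and 1 at age 7, and 5 rose at age 9, or 58.3%, 66.7% and 41.7% of the 12 beside 45.9%, 48.1% and 42.2% of all genes. Cytoplasmic actin actb1 rose at age 7 (1.18, edgeR adjusted p = 0.0143), and actr3, of the Arp2/3 complex that nucleates branched filaments, rose at ages 4 (0.70) and 7 (0.55). Of 23 actin regulators, 4 rose and 3 fell at age 4, 5 and 1 at age 7, and 5 and 1 at age 9. Without age 2 replicate 1 the counts were 7 and 4, 7 and 3, and 9 and 2. With all libraries 30.4%, 26.1% and 26.1% of the 23 passed, beside 18.6%, 27.3% and 18.4% of all genes. Without that library it was 47.8%, 43.5% and 47.8%, beside 45.9%, 48.1% and 42.2%. The bundling protein gene lcp1 rose at all 3 ages (2.72, 2.58 and 2.32) and the severing protein gene scinlb fell (-1.56, -1.64 and -1.27). The gene lcp1 is also on the macrophage list.

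The smooth muscle actin was high in several of the libraries in which acta1b was high. The smooth muscle actin gene acta2 had 4421 and 8095 CPM in age 9 replicates 1 and 3 and 5668 CPM in age 7 replicate 3, where acta1b stood at 54.5, 52.3 and 37.3 CPM. In age 9 replicate 2 and age 7 replicate 2, where acta1b was lowest among the older libraries, acta2 had 2344 and 2117 CPM. Age 9 replicate 4 was an exception, with 4485 CPM of acta2 and 10.1 CPM of acta1b, and so was age 2 replicate 4, with 3820 and 5.52 CPM. Age 4 replicate 2 was next highest in acta1b, at 29.3 CPM, with 2741 CPM of acta2. Age 7 replicate 1 had more acta2, at 3633 CPM, with 15.7 CPM of acta1b. The acta2 log2 fold change against age 2 was 0.06, 0.74 and 1.196 at ages 4, 7 and 9 and passed at none of them (edgeR adjusted p = 0.925, 0.176 and 0.0523).

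Of 21 smooth muscle and peritubular genes in the tables, 13 were tested and 4, including the defining marker tagln, had no count in any library. As for the sarcomere genes, an absent count is not read as absence of the transcript. Of the 13, 4 fell at age 4, 1 rose and 1 fell at age 7, and 3 rose at age 9. Without age 2 replicate 1, 5 fell at age 4, 1 rose and 4 fell at age 7, and 3 rose and 3 fell at age 9. With all libraries 30.8%, 15.4% and 23.1% of the 13 passed, beside 18.6%, 27.3% and 18.4% of all genes. Without that library it was 38.5%, 38.5% and 46.2%, beside 45.9%, 48.1% and 42.2%. The summed level of the 21 genes lay between 1937 and 5758 CPM at age 2, 2477 and 4193 CPM at age 4, 3015 and 8202 CPM at age 7, and 3568 and 11130 CPM at age 9. Of the 1937 CPM in age 2 replicate 1, 1363 CPM came from acta2. Of the 11130 CPM in age 9 replicate 3, 8095 CPM did, so the sum is not separate from acta2. The part of smooth muscle RNA, or of reads shared with acta2, in the level of acta1b was not tested.

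Markers of other cells were set beside the 3 genes. Of 13 macrophage and myeloid genes tested, 7 rose at age 4, 5 at age 7 and 11 at age 9. Those are 53.8%, 38.5% and 84.6% of them, beside 18.6%, 27.3% and 18.4% of all genes. The counts were equal without age 2 replicate 1, where 45.9%, 48.1% and 42.2% of all genes passed. In that fit the share at age 7 was below that of all genes. The summed level of the macrophage list lay between 436 and 577 CPM at age 2 and 671 and 1260 CPM at age 4. It lay between 499.9 and 1030 CPM at age 7, and 1274 and 2014 CPM at age 9. Of 15 spermatogonial genes 5 fell at age 4, 1 rose and 5 fell at age 7, and 2 rose and 5 fell at age 9, or 33.3%, 40% and 46.7%, and without age 2 replicate 1 the counts were 3 and 6, 4 and 6, and 3 and 6. Among them, tdrd1, of the piRNA pathway of germ cells, had 120.4 CPM in age 2 replicate 1, 388 to 703.4 CPM in the other age 2 libraries and 70.7 to 162.8 CPM in the older ones. Of 10 Sertoli cell genes 1 rose and 2 fell at ages 4 and 7, and 1 fell at age 9, or 30%, 30% and 10%, and without age 2 replicate 1 the counts were 1 and 3 at each age. The summed level of the 13 Sertoli cell genes in the tables was 497 CPM in age 2 replicate 1, 2866 to 7791 CPM in the other age 2 libraries and 627 to 1877 CPM in the older ones. This sum includes gsdf, at 1934 to 6708 CPM in age 2 replicates 2 to 4. It is therefore not a measure separate from the gsdf levels given above. Of 7 Leydig cell genes, 1 rose at age 4 and 2 at each of ages 7 and 9, or 14.3%, 28.6% and 28.6%. Without age 2 replicate 1, 2 of these Leydig cell genes rose and 1 fell at age 4, and 2 rose at each of ages 7 and 9. Their mean log2 CPM was 6.21 and 6.39 in age 9 replicates 1 and 3, and 6.24 in age 7 replicate 3. In those libraries acta1b was highest. The mean was 4.55 and 3.56 in age 9 replicate 2 and age 7 replicate 2, where acta1b was lowest among the older libraries. Age 7 replicate 1 had a mean of 5.845 with 15.7 CPM of acta1b, and age 7 replicate 4 had 4.98 with 20.4 CPM. Genes from ribosomal and mitochondrial RNA took 38.2% of the assigned fragments in age 2 replicate 1 and 10.9% to 28.1% in the remaining ones. The part of these in the levels of the 3 genes was not tested, apart from the fit without ribosomal and mitochondrial genes, in which acta1a changed by 2.00 at age 4 (edgeR adjusted p = 0.0566) and 1.93 at age 9 (adjusted p = 0.0629).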

How the data were processed

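The deposited tables give raw counts of fragments per transcript, 1 table per library, each with 50072 transcripts and 5 summary lines. STAR 2.7.5, HTSeq 0.11.1, Trimmomatic 0.39, edgeR 4.4.2, FastQC 0.11.9 and MultiQC 1.10.1 are named in the submitters' processing notes, while their settings, the strandedness and the genome build were not stated. The summary lines held 65.2% to 76.2% of fragments and were left out. Counts were summed per symbol to 26356 genes. Names were checked against a RefSeq table of the assembly Billie_1.0 (48916 transcripts matched). Its coordinates were used only to look for other genes placed over the genes studied.

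Genes were kept by filterByExpr (minimum count 10, total 15), scaled by TMM (factors 0.773 to 1.13) and tested with the quasi-likelihood test of edgeR 4.0.16 (R 4.3.3). Standard errors of edgeR estimates were derived from that test, as the absolute log2 fold change or slope divided by the square root of its F statistic. A single model by age held the 16 libraries and left 12 residual degrees of freedom; tests were two-sided and Benjamini-Hochberg adjusted at 0.05 over 15979 genes. The biological coefficient of variation, common to all genes, was 0.417. The slope fit used 12 libraries, age and the score (8 residual degrees of freedom). A prior count of 2 entered log2 CPM, and correlations used 100000 resamples, two-sided. The replicates are labelled biological, and no 2 libraries of the same age were duplicates (chi-square divided by its degrees of freedom was 10.1 to 118.2). Libraries of different ages were not compared in this way. The comparisons with age 2 share its libraries and are not independent of each other.

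The 3 genes, the 17 gene lists and the tests were chosen with earlier results of these data known. Named were the 3 genes, the 5 genes most like each, and per list the 3 genes with the highest mean and, for muscle and actin lists, the 3 with the smallest p against age 2. Genes named beyond that rule, chosen after their values were seen, are the muscle markers given as low, nebl and tagln. Alternatives were DESeq2 1.42.0 size factors, upper quartile scaling, no filter, limma 3.58.1 voom, DESeq2, the replicate number as a block, 2 ages alone, ribosomal and mitochondrial genes left out, other slope settings and the omission of each library. List counts without age 2 replicate 1 were added after seeing the data. Summaries used python 3.11.15, numpy 2.4.6, pandas 2.3.3 and matplotlib 3.10.9. Sequences of the genes are not shown here.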

Additional observations from a re-analysis of the deposited data

Results flagged for a closer look

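Among the 16 groups of 4 libraries checked, 4 ages for each of the 3 genes and the sperm flagellum score, a library stood far from the other 3 of its age in 2 cases; chance gives about 1 in 20 groups. The level of acta1a in age 2 replicate 1 was 404.1 CPM, and the other 3 age 2 libraries had 28.4 to 39.9 CPM. The level of actn3b in age 7 replicate 2 was 8.04 CPM, and the other 3 age 7 libraries had 4.34 to 4.93 CPM, from 26 to 46 counts.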

How the results depend on the processing

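Of the values recomputed under alternatives, 199 kept their direction and side of the threshold or stayed within 1.5 times a count, 19 counts moved further, 13 calls were lost, 3 were gained and 7 values turned sign, apart from the fits that left out a library; the cause was not tested. For acta1a against age 2 the call was lost at age 9 with DESeq2 size factors (1.96), at ages 4 and 9 with no filter (2.04 and 1.94) and without ribosomal and mitochondrial genes (2.00 and 1.93), and at ages 4, 7 and 9 with fits on 2 ages alone (2.02, 2.49 and 2.00). With voom acta1a kept its calls at larger values, 3.67, 4.29 and 3.64 at ages 4, 7 and 9, against 2.04, 2.499 and 1.98. DESeq2 gave acta1a no adjusted p in any comparison of ages. For acta1b the call at age 7 was lost with no filter (2.23) and with voom (2.13), that at age 9 with 2 ages alone (2.82), and at age 4 a call was gained with DESeq2 (1.86). For actn3b the call at age 4 was lost with 2 ages alone (-1.53). The slopes of acta1a (0.87) and actn3b (-0.44) passed with all 16 libraries. With the meiosis score the slopes turned to -0.48, 2.098 and 0.0456 for acta1a, acta1b and actn3b, and the correlations to -0.14, 0.24 and 0.0455. Counts of genes called moved as follows. With voom they were 7861, 8587 and 7806 at ages 4, 7 and 9 against age 2, and 0, 63 and 242 for age 7 against 4, 9 against 4 and 9 against 7. DESeq2 gave 14, 111 and 75 for the last 3. Fits on 2 ages alone gave 0, 1108 and 1039 against age 2, 8 for age 9 against 4 and 6 for age 9 against 7. With no filter age 7 against 4 gave 0. The slope gave 0 with the meiosis score and 5397 with all 16 libraries, against 2317.

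The labels do not state whether replicate numbers pair the fish. Deviations of libraries with the same number had correlations of -0.22 to 0.412, over 0.1 in 9 of 24 pairs. Those with different numbers had -0.361 to 0.376, over 0.1 in 19 of 72. These ranges overlap and cannot decide whether the fish are paired. With the replicate block, acta1a was 2.66, 3.09 and 2.64 at ages 4, 7 and 9 against age 2, with the calls kept, acta1b was 2.05 at age 7 against age 2 (edgeR adjusted p = 0.069) and -0.0023 at age 7 against age 4, 0 genes were called at age 7 against age 4, and 1487 on the slope.

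Leaving out each library in turn, the log2 fold changes against age 2 at ages 4, 7 and 9 ran from 1.71 to 3.97, 2.17 to 4.45 and 1.65 to 3.90 for acta1a, 1.36 to 2.09, 1.70 to 2.503 and 2.37 to 3.17 for acta1b, and -1.80 to -1.38, -2.27 to -1.83 and -1.99 to -1.55 for actn3b. At age 9 against age 4 acta1a ran from -0.28 to 0.0775, and at age 7 against age 4 acta1b ran from -0.16 to 0.85. Genes called against age 2 ran from 1 (without age 4 replicate 3) to 7331, 1989 (without age 2 replicate 3) to 7680 and 1175 (without age 2 replicate 2) to 6743, each highest without age 2 replicate 1. They ran from 0 to 3 for age 7 against 4, 0 to 8 for age 9 against 4, 0 to 1 for age 9 against 7, and 1492 to 2476 for the slope. Standard errors between the older ages were 0.64 for acta1a, 0.69 for acta1b and 0.37 for actn3b with all libraries. Without age 2 replicate 1 they were 0.23, 0.69 and 0.28. The counts per older library were 2392 to 4847, 25 to 341 and 26 to 71 in the same order. How the standard error related to the count thus depended on that library.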
